A study of Homo sapiens with 16 samples.

Results

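The clustered protocadherin genes are the 53 protein-coding genes on chromosome 5 whose symbols begin with PCDHA, PCDHB or PCDHG in RefSeq on GRCh38.p14, out of 19970 protein-coding genes on chromosomes 1 to 22 and X. The rule uses symbol and position. The alpha cluster (chr5:140786140-141012347) holds 15 members, the beta cluster (chr5:141051374-141249365) holds 16 and the gamma cluster (chr5:141330514-141512975) holds 22. Binding was measured by ChIP-seq in HCT116 cells, a widely used line from a human colon tumour, in 3 states named in the labels: HCT116 with no further name (called unmodified here), CTR or shCtrl cells, and shARID1A cells, in which the series describes loss of ARID1A. ARID1A, H3K9me3 and TRIM28 were precipitated in unmodified cells, the same 3 and SETDB1 in shCtrl cells, and H3K9me3, TRIM28 and SETDB1 in shARID1A cells. ARID1A in shARID1A cells was not analysed here, so the extent of the loss at these genes was not seen. Each of these 10 libraries was the only one of its kind, and each had a peak list called against input DNA and another called against IgG, 20 lists in all. No difference below therefore has a replicate check, and every interval is a 95% interval that covers counting error only.

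Clustered protocadherins are cell-surface adhesion proteins best known from neurons, where each cell makes its own combination of them and like combinations recognise each other. In the alpha and gamma clusters, variable exons stand in a row, each behind its own promoter, and are spliced to constant exons at the far end that all transcripts of the cluster share. Beta genes are single exons with no constant part. The last members of the alpha and gamma clusters (PCDHAC1, PCDHAC2, PCDHGC3, PCDHGC4 and PCDHGC5), called C-type, are diverged in sequence and are expressed more evenly among neurons. Most promoters carry a conserved element with the core CGCT, to which the insulator protein CTCF binds. SETDB1 is the methyltransferase that places H3K9me3, a mark of silent chromatin; TRIM28 is the corepressor that brings SETDB1 to zinc-finger proteins on DNA; ARID1A is a DNA-binding subunit of the SWI/SNF chromatin remodeller. In mouse neurons the loss of Setdb1 is known to disturb the folding and silencing of the clustered protocadherins.

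The letters before the start are shown for the 6 members at which a shCtrl SETDB1 peak called against input covered a CGCT, and for PCDHGC3 as a C-type promoter of different composition. Each run is the 150 bases that end just before the start, on the plus strand, from the RefSeq promoter table on GRCh38.p14, and capitals mark CGCT.
PCDHA10, chr5:140855747-140855896: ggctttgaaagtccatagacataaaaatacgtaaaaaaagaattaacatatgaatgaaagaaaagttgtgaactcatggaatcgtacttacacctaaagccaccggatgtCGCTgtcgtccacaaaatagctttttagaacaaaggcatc
PCDHB10, chr5:141192203-141192352: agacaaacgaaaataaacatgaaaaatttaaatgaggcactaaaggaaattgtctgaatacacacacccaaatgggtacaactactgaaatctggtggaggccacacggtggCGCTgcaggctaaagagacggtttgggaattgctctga
PCDHGA6, chr5:141373741-141373890: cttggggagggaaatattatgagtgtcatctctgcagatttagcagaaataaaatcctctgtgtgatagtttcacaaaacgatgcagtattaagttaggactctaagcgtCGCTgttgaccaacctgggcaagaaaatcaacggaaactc
PCDHGA8, chr5:141392483-141392632: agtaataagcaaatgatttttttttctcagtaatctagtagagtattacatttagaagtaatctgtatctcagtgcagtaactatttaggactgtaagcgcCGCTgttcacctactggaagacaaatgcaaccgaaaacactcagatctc
PCDHGA9, chr5:141402628-141402777: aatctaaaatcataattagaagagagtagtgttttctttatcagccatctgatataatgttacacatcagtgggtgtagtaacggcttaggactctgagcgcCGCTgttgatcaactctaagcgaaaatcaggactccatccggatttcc
PCDHGA10, chr5:141412837-141412986: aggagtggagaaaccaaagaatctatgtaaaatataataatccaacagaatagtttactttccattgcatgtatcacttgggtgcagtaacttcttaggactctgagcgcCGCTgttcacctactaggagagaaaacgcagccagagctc
PCDHGC3, chr5:141475816-141475965: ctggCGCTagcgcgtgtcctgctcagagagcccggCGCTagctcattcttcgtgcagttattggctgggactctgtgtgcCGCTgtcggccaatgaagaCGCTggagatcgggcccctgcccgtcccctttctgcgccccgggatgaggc

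Of the 53 members, 47 had a promoter in that table, which gives 250 bases before and 50 after each start. CGCT stood on the gene's strand between 100 and 30 bases before the start in 43 of the 47 (91.5%), against 27.3% of 15811 protein-coding promoters. On either strand anywhere in the 300 bases, it was found in 46 of 47 members and in 81.2% of all promoters. Member promoters were poor in G and C, with a median of 39.7% against 62.7% over all promoters, and held a median of 7 CpG dinucleotides against 22. The 4 C-type promoters in the table had medians of 61.8% and 20.5. Pairs of promoters were compared over the 41 bases around the CGCT nearest to 50 bases before the start. The median pair was identical at 68.3% of positions in gamma A, 63.4% in alpha and 62.2% in beta. It was 39.0% in the C-type, 31.7% in gamma B and 41.5% for pairs from different groups. PCDHGB4, PCDHGB5, PCDHGB6, PCDHGC3 and PCDHAC2 held 2 CGCT between 100 and 30 bases before the start, and the second was used. Unlike parts of these promoters may thus have been compared, so the gamma B and C-type values do not measure divergence. Among the promoters printed above other than PCDHGC3, pairs of gamma A members ran from 65.9% to 82.9% and pairs from different groups from 36.6% to 53.7%. The promoters of PCDHGB4 and PCDHGB5 shared a run of 78 identical bases, and those of PCDHB8 and PCDHB13 a run of 55. How reads that fit more than 1 such copy were placed is not given in the sources used here, so a low peak at these copies is uncertain.

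The lists differed widely in stringency. Against input they held between 11374 and 203714 peaks, and between 15 and 37702 of them had a q value of at most 0.05, called strong peaks here. The share of peaks listed with a q value of 1 ran from 8.02% in the shCtrl SETDB1 list to 99.9% in the shCtrl TRIM28 list. Sequencing depth is not given in the sources used here. Some libraries also met lists of another antibody more often than lists of their own. Of the 37702 strong peaks of the library labelled shCtrl SETDB1, 17.2% met a strong peak of the library labelled shARID1A H3K9me3. A share of 1.56% (587 peaks) met one labelled shARID1A SETDB1. The latter list held 1363 strong peaks and the former 12115, so the latter share could not be high. Of the 12115 strong peaks of shARID1A H3K9me3, 53.5% met shCtrl SETDB1 (37702 strong peaks) and 2.43% met shCtrl H3K9me3 (6833). Of the 6833 strong peaks of shCtrl H3K9me3, 10.8% met unmodified ARID1A (835 strong peaks) and 4.30% met shARID1A H3K9me3 (12115). Each of these names is therefore a library's label and not a checked identity.

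The clusters were not bare of peaks in any library, and in most libraries their peak density was close to that of the genome. Over the 612.7 kb of the 3 clusters, each widened by 1000 bp on both sides, the number of peaks called against input ran from 6 (unmodified ARID1A and unmodified H3K9me3) to 107 (shARID1A TRIM28). Peaks per kb were higher than over chromosomes 1 to 22 and X in 6 of 10 libraries against input and in 7 of 10 against IgG. The interval of the ratio lay above 1 in 1 library against input and in 3 against IgG, and lay below 1 in none.

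**Figure D1:**
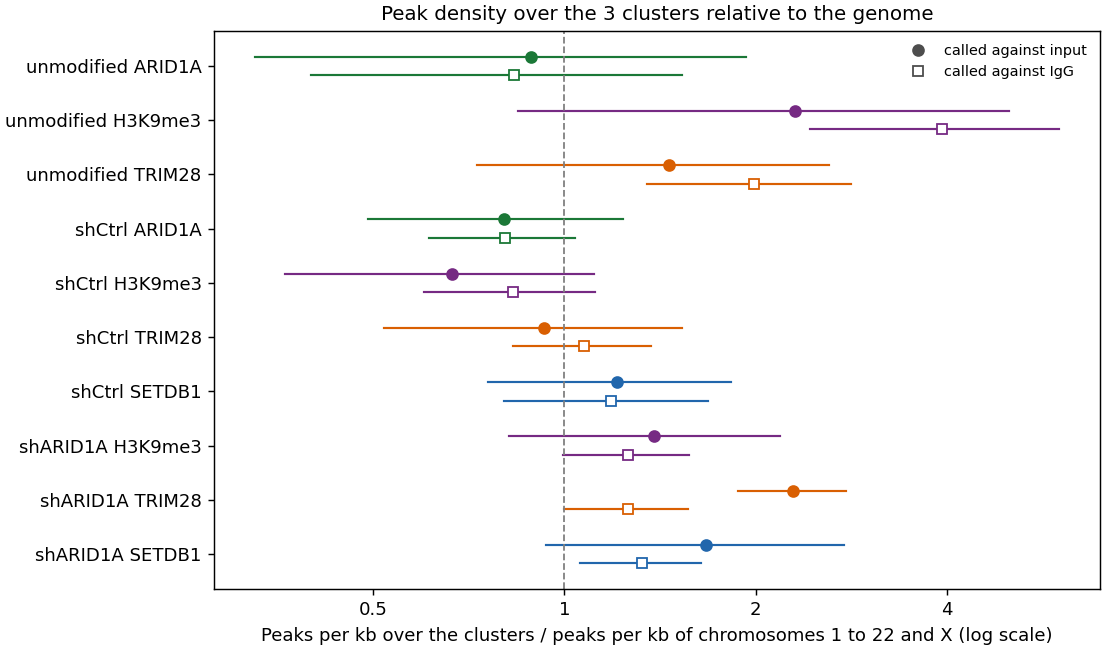
Peaks per kb over the 3 clusters divided by peaks per kb of chromosomes 1 to 22 and X (log scale) for the 10 libraries, with 95% Poisson intervals as lines; filled circles are lists called against input and open squares lists called against IgG. The shARID1A TRIM28 list called against input lies at 2.29 and its list called against IgG at 1.26, while the unmodified H3K9me3 lists lie at 2.30 and 3.94.

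The library labelled shCtrl SETDB1 gave the tallest peaks of the clusters, and most of them lay in the alpha cluster. That library had 22 peaks against input, 14 in alpha, 1 in beta and 7 in gamma, and 9 were strong (7 in alpha and 2 in gamma). Against IgG it had 31, of which 20 were in alpha, 5 in beta and 6 in gamma, and 11 were strong. The density in alpha was 2.07 times that of the genome (1.13 to 3.47) against input and 2.05 times (1.25 to 3.17) against IgG, while beta lay at 0.168 (0.00427 to 0.939) and 0.585 (0.190 to 1.36). Among all windows of the alpha cluster's length on the genome, 13.6% held at least 14 peaks of this list, so such numbers were not rare for a stretch of that size.

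**Figure D2:**
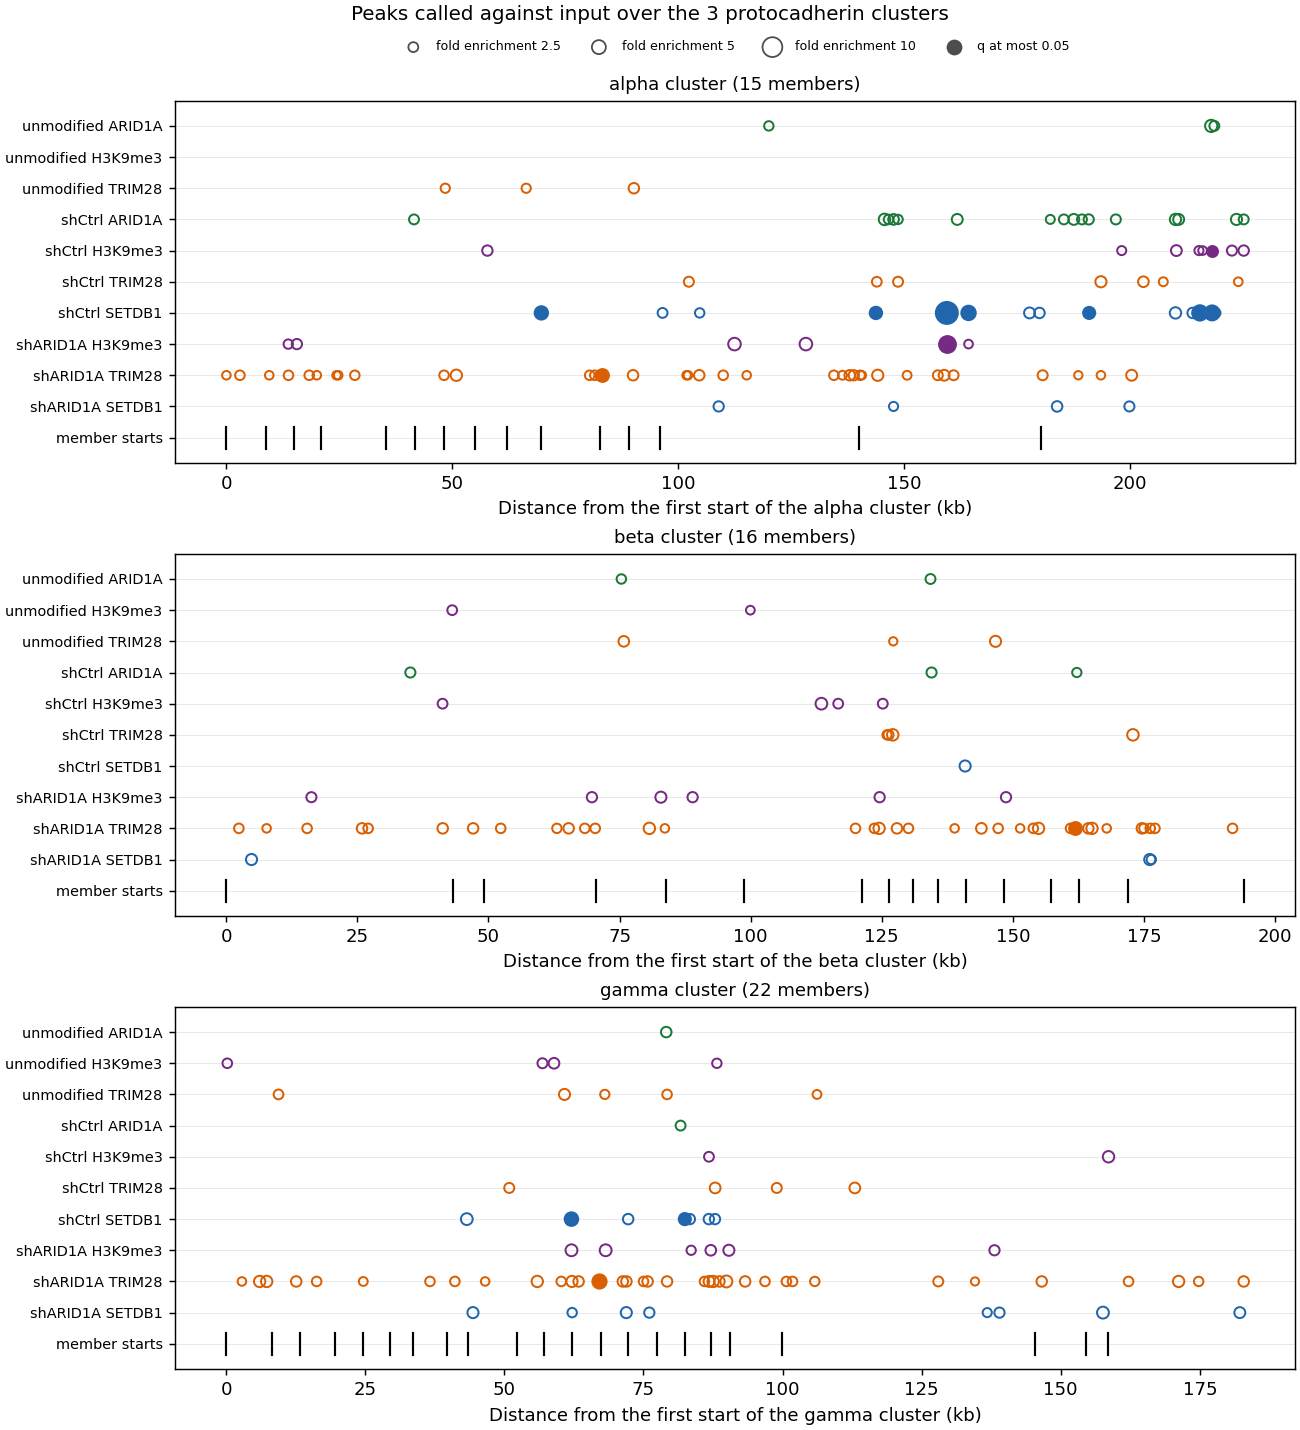
Summits of peaks called against input, by distance in kb from the first start of each cluster, with 1 row per library; circle area grows with fold enrichment, filled circles have q of at most 0.05 and black ticks are member starts. The largest filled circles, 12.35 and 7.24, stand at the same place in the alpha cluster in shCtrl SETDB1 and shARID1A H3K9me3, and open shARID1A TRIM28 circles run along all 3 clusters.

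At the starts, 9 of 53 members (17.0%, interval 8.07 to 29.8) had a shCtrl SETDB1 peak within 1000 bp against input, where 30.2% of all protein-coding genes with a start had one. Against IgG 12 members (22.6%) did, beside 43.7% of all genes. Both of the members' intervals end below the share of all genes. Summits were more frequent near starts than the length of such stretches alone would give, though most lay farther away. Of the 22 summits against input, 8 lay within 500 bp of a member's start (36.4%, 17.2 to 59.3), although such positions make up 8.66% of the clusters' length. Against IgG it was 10 of 31 (32.3%, 16.7 to 51.4). Over the whole lists, 4.03% and 4.08% of summits lay that near a start. The share of the genome's length near starts was not counted, so this was not shown to be particular to the members. The interval also lay above 8.66% for unmodified H3K9me3 against input (50%, 11.8 to 88.2). Against IgG it did so for shARID1A H3K9me3 (19.2%) and shARID1A TRIM28 (19.75%). In the remaining lists it held 8.66%.

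The nearest summits belonged to the members whose letters are printed above. PCDHA10, an alpha variable-exon gene, had a peak of 4.57-fold enrichment against input with its summit at -11 bp from the start (negative is before the start) and of 2.98 against IgG. PCDHGA8 had 4.70 with the summit at -56 bp and 2.98 against IgG. PCDHGA10 had 3.79 at -31 bp and 4.96 against IgG. All 3 were strong against input, where 19 percent of all genes had a strong peak at the start. Against IgG 4 members had a strong start peak, beside 32.8 percent of all genes.

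The other shCtrl SETDB1 peaks at these starts were lower against input. PCDHGA6 had 3.56 at -126 bp against input and a strong peak of 3.93 against IgG. PCDHGA9 had 2.82 at -7 bp and a strong peak of 3.64 against IgG. PCDHB10, the only beta member with such a peak against input, had 3.18 at -111 bp and 2.65 against IgG, neither strong. In all 6, by the rule that picked them for printing, the peak against input covered the CGCT before the start. Of the 43 members with the word in that place, 6 were covered against input (13.95%, 5.30 to 27.9) and 8 against IgG (18.6%, 8.39 to 33.4), beside 7.997% and 12.03% of the 4314 promoters in the genome with the word there. Both intervals hold the genome's share.

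In shARID1A cells the SETDB1 library had 15 peaks over the clusters against input, none strong, and 84 against IgG, also none strong. Start peaks against input were found at 4 members (7.55%, beside 15.8% of all genes). PCDHGA6, PCDHGA8 and PCDHGA9 had one in both states (beside 6.3% of all genes), 6 members in shCtrl cells alone (beside 23.9% of all genes) and PCDHGC5 in shARID1A cells alone (9.51% of all genes). At the PCDHGA8 start the shARID1A SETDB1 peak was 2.28 (summit at 71 bp), at PCDHGA9 3.16 (-342 bp) and at PCDHGA6 3.16 (980 bp). Of the 22 shCtrl SETDB1 peaks over the clusters against input, 1 met a shARID1A SETDB1 peak, at PCDHGA8. That is 4.5%, beside 4.8% of the whole list. Against IgG, 19 members had a start peak in shARID1A cells (35.85%, 23.1 to 50.2, beside 58 percent of all genes). In shCtrl cells 12 did (22.6%, beside 43.7 percent). Which state had more members thus depended on the control used. The same was so over all genes, where the input shares were 30.2 percent in shCtrl and 15.8 percent in shARID1A cells. Genome-wide the shCtrl list held 37702 strong peaks and the shARID1A list 1363, and the part of this gap in the values at the members was not tested.

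Against input, the site with peaks of the most libraries was at the start of PCDHGA8, where a site is a run of overlapping peaks. There 4 libraries had a peak at chr5:141392387-141392788, namely shCtrl SETDB1 (4.70), shARID1A H3K9me3 (3.60), shARID1A TRIM28 (3.19) and shARID1A SETDB1 (2.28), and each met a peak of the same library against IgG. No unmodified library had one there. By the wider rule of 1000 bp on either side of a start, PCDHGB7 had peaks of 6 libraries against input, the most of any member. PCDHGA8 had peaks of 4 by that rule. Against IgG the site with the most held 6 libraries. In all, the peaks against input merged into 194 sites, of which 165 held 1 library, 22 held 2 and 7 held 3 or more.

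Outside the starts, the tallest peak of the clusters stood at chr5:140945431-140945811, inside PCDHAC1's own segment, here the stretch from a member's start to the next. Its summit lay 19317 bp after the start of PCDHAC1, a C-type gene. The shCtrl SETDB1 peak was 12.35-fold against input and 11.5-fold against IgG, and the shARID1A H3K9me3 peak at the same place was 7.24 and 3.90. Both libraries were strong against both controls, and none of the other 8 libraries had a peak there. These are the libraries whose strong peaks met across the genome despite unlike labels.

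The segment of PCDHAC2, which runs to the end of the alpha cluster and so takes in the constant exons, held the next tallest. At chr5:141003859-141004692, with the summit 37891 bp into the segment, the shCtrl SETDB1 peak was 5.75 against input and 12.03 against IgG, and the shCtrl H3K9me3 peak was 3.06 and 6.48, strong in each case. In shARID1A cells H3K9me3 had a strong peak of 3.88 there and SETDB1 one of 1.98 that was not strong, both against IgG with no peak against input. Unmodified ARID1A had a peak of 3.83 against input that was not strong. At chr5:141001487-141002579, shCtrl SETDB1 had 5.75 against IgG and 6.02 against input, and shARID1A H3K9me3 5.29 against IgG with no peak against input. PCDHAC2 had peaks of 7 libraries against input, the most of any member, and PCDHA13, PCDHAC1 and PCDHGB4 of 6. The segments of PCDHAC2, PCDHA13 and PCDHAC1 measure 45872, 44175 and 40177 bp, where the median beta gene has 3846 bp, and a longer stretch meets more peaks.

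H3K9me3 gave 1 strong peak against input in each of shCtrl and shARID1A cells and 0 in unmodified cells over the clusters, and against IgG 3, 8 and 0. In unmodified cells there were 6 peaks against input, 0 in alpha, 2 in beta and 4 in gamma, and 21 against IgG, 5, 7 and 9. The list against input held 15 strong peaks in the whole genome. The density was 2.30 times the genome's (0.845 to 5.01) against input and 3.94 times (2.44 to 6.02) against IgG. In gamma it was 5.10 (1.39 to 13.1) and 5.60 (2.56 to 10.6), and 4.83% and 0.903% of windows of that length held as many peaks. Start peaks were present at 4 members against input (7.55%, 2.10 to 18.2, beside 0.734 percent of all genes) and 8 against IgG (15.1%, 6.75 to 27.6, beside 1.99 percent). Of the 10 libraries, this one had the largest ratio of the members' share to that of all genes. PCDHGB4 (2.55 at -333 bp), PCDHB2 (2.44 at -144 bp) and PCDHGA1 (2.36 at 196 bp) had one against both controls, and PCDHGB7 (2.28) against input alone. These folds are near the list's median of 2.36.

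The library labelled shCtrl H3K9me3 did not show that density. It had 14 peaks against input (0.664 times the genome's density, 0.363 to 1.11) and 43 against IgG (0.829, 0.600 to 1.12). Start peaks were called at 2 members against input (PCDHGC5 and PCDHGB7, beside 6.53 percent of all genes) and at 8 against IgG (26.5 percent). PCDHGC5, a C-type gene, had 3.33 at its start against input and a strong 4.03 against IgG, the single strong start peak of that list among the members (3.04 percent of all genes). Relative to the genome, the number of peaks over the clusters was lower in shCtrl than in unmodified cells, with a log2 excess of -1.79 (-3.26 to -0.13) against input and -2.25 (-3.03 to -1.42) against IgG. In shARID1A cells the H3K9me3 library had 18 peaks against input, 6 in each cluster, and 78 against IgG. Its start peaks numbered 8 (15.1%, beside 13.5 percent of all genes) and 21 (39.6%, beside 55.2 percent), with 3.60 at PCDHGA8, 3.15 at PCDHGA11 and 2.90 at PCDHGB7 against input. Strong start peaks were found at 3 members against IgG (PCDHA13, PCDHB8 and PCDHGA8, beside 25.9 percent of all genes). PCDHGB7 was the member with a start peak in both states against both controls.

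TRIM28, the corepressor, gave the largest number of peaks, in shARID1A cells. The list against input held 107 over the clusters, 36 in alpha, 35 in beta and 36 in gamma, at 2.29 times the genome's density (1.88 to 2.77). Of windows of each cluster's length, 2.21%, 1.07% and 0.642% held as many, and the medians were 18, 15 and 14. Against IgG the same library had 81, 34 in alpha, 19 in beta and 28 in gamma, at 1.26 times (0.999 to 1.56). In beta the ratio was 2.30 against input and 0.904 against IgG, so the control decided whether beta stood above the genome. Of the 107 peaks 56 met an IgG peak of the same library, and 32 of the 107 carried the identical fold enrichment of 2.354, which is the median of the list. Only 3 of the 107 were strong.

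Those 3 lay within 1000 bp of member starts, beside 1.13 percent of all genes with a strong peak there, and 2 of them were strong against IgG as well (4.91 percent). PCDHA11 had 4.24 against either control with the summit 330 bp after its start. The peak before PCDHB13 was 4.24 at -719 bp against input, strong there, and met an IgG peak that was not strong. The peak before PCDHGB5 was 5.18 at -362 bp against either control, and it lies in the segment of PCDHGA8. Start peaks of any strength were found at 22 members against input (41.5%, 28.1 to 55.9, beside 26.5 percent of all genes) and at 21 against IgG (39.6%, 26.4 to 54.0, beside 54.1 percent). The members' share thus lay above that of all genes with 1 control and below it with the other.

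In shCtrl cells TRIM28 had 15 peaks against input and 65 against IgG, none strong, at 0.930 and 1.08 times the genome's density. Start peaks were found at 4 members against input (7.55%, beside 3.37 percent), PCDHB8 and PCDHB14 with 3.38 each, PCDHGB7 with 2.98 and PCDHGA12 with 2.57. Against IgG 16 members had one (30.2%, beside 18.1 percent). In unmodified cells it had 11 against input and 31 against IgG, none strong, at 1.46 (0.728 to 2.61) and 1.99 (1.35 to 2.82). Start peaks were again found at 4 members (beside 2.94 percent), PCDHA12 (2.80), PCDHGB5 (2.21), PCDHA7 (2.19) and PCDHB8 (1.77), and at 7 against IgG (13.2%, beside 6.79 percent). PCDHB8 had a start peak in unmodified and in shCtrl cells against both controls, 825 and 719 bp after its start against input.

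ARID1A, the remodeller subunit, had start peaks at a smaller share of members than of all genes in shCtrl cells. In unmodified cells the members' intervals hold the share of all genes with either control. In unmodified cells none of the 53 had a start peak against input, with an interval up to 6.72%, beside 3.71 percent of all genes, and PCDHGC5 alone had one against IgG (3.03 at -807 bp, beside 8.22 percent). In shCtrl cells 3 members had one against input (5.66%, 1.18 to 15.7, beside 20.4 percent), namely PCDHA6 and PCDHGA10 with 2.52 each and PCDHB13 with 2.21. Against IgG 12 had one (22.6%, 12.3 to 36.2, beside 56.5 percent). In shCtrl cells the members' share lay below that of all genes with either control, and the intervals do not reach it. Of the 20 shCtrl ARID1A peaks over the clusters against input, 16 were in alpha, and 15 of the 16 lay in the segments of PCDHAC1 (5) and PCDHAC2 (10). No ARID1A peak over the clusters was strong.

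**Figure D3:**
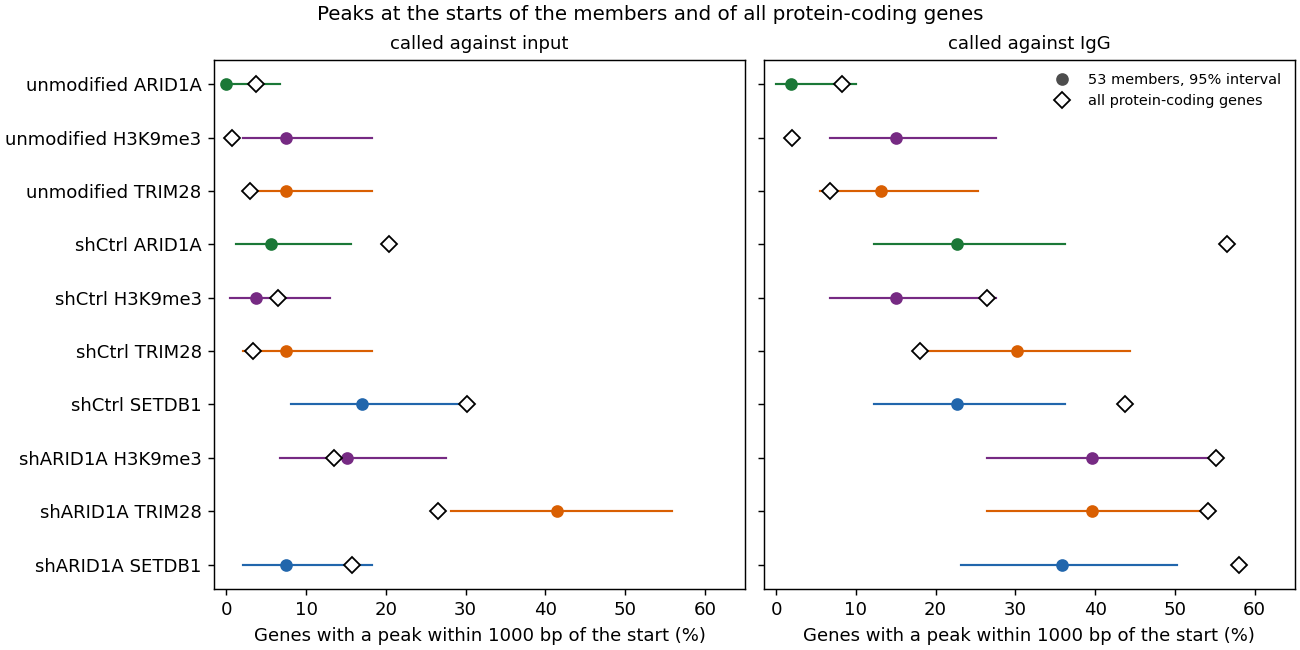
Share of genes with a peak within 1000 bp of the start, in percent, for the 53 members (circles, with 95% exact binomial intervals as lines) and for all 15812 protein-coding genes with a start (open diamonds), by library, against input on the left and IgG on the right. The members lie below all genes on both sides for unmodified ARID1A, shCtrl ARID1A, shCtrl H3K9me3, shCtrl SETDB1 and shARID1A SETDB1. They lie above them on both sides for unmodified H3K9me3, unmodified TRIM28 and shCtrl TRIM28. For shARID1A H3K9me3 and shARID1A TRIM28 they lie on opposite sides. Several of the intervals reach the share of all genes.

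The series asks how ARID1A relates to silent chromatin, and for that question shARID1A and shCtrl cells were compared by the log2 ratio of peak numbers over the clusters, less the same ratio over the genome. For TRIM28 this excess was 1.30 (0.52 to 2.19) against input, 0.23 (-0.26 to 0.72) against IgG and 0.84 (-0.05 to 1.84) for input peaks that met an IgG peak. For H3K9me3 it was 1.06 (-0.03 to 2.18), 0.60 (0.05 to 1.17) and 0.63 (-0.74 to 2.05). For SETDB1 it was 0.46 (-0.59 to 1.48), 0.16 (-0.45 to 0.81) and 0.36 (-0.82 to 1.48). All 9 values were above 0, and 2 of the 9 intervals excluded it. They are not separate readings, since each antibody's single pair of libraries was counted in 3 ways. With the top 10000 peaks the excess was 1 for TRIM28, 0 for H3K9me3 and -1.585 for SETDB1. At q of at most 0.05 it was -0.83 for H3K9me3. These values stand on 4 or fewer peaks per state. The shCtrl value of each pair stands on 9 to 65 peaks.

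**Figure D4:**
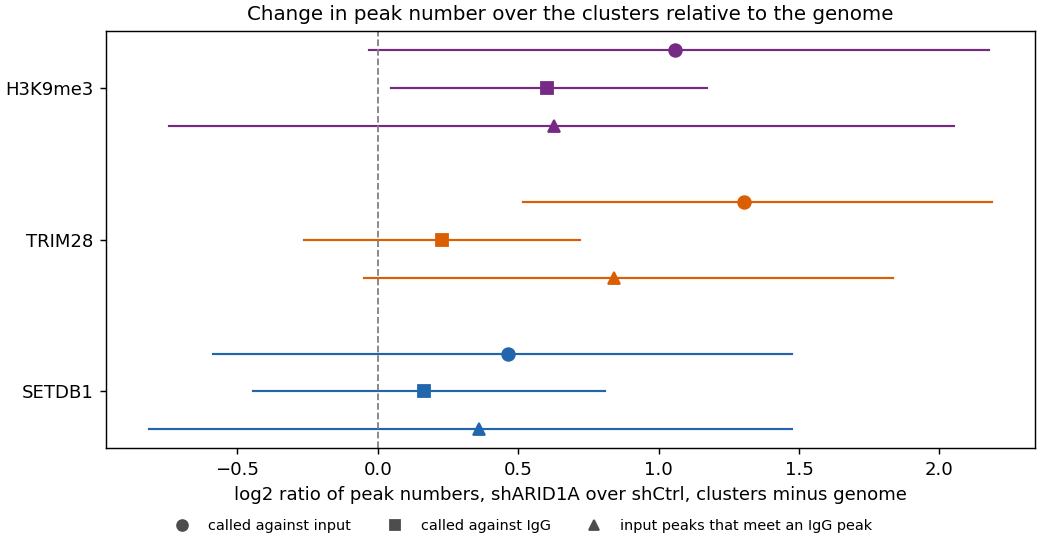
The log2 ratio of peak numbers, shARID1A over shCtrl, over the clusters minus the same ratio over the genome, for 3 antibodies and 3 ways of using the controls, with 95% intervals for counting error. The points lie between 0.16 and 1.30, and TRIM28 moves from 1.30 against input to 0.23 against IgG.

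Start peaks in shCtrl and shARID1A cells were also compared member by member. For TRIM28 against input, 20 members had a start peak in shARID1A cells alone (beside 25.6 percent of all genes), PCDHB8 and PCDHB14 in shCtrl cells alone (2.52 percent), and PCDHGA12 and PCDHGB7 in both (0.854 percent). Against IgG it was 14 (42.8 percent), 9 (6.79 percent) and 7 (11.3 percent). For H3K9me3 against input, 7 members had one in shARID1A cells alone (12.5 percent) PCDHGC5 in shCtrl cells alone (5.5 percent) and PCDHGB7 in both (1.03 percent). Against IgG it was 20 (35.7 percent), 7 (7 percent) and 1 (19.5 percent). For SETDB1 against IgG, 12 had one in shARID1A cells alone (21 percent), 5 in shCtrl cells alone (6.76 percent) and 7 in both (37 percent).

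Over all libraries, 50 of the 53 members had a peak of at least 1 library against input in their own segment, and PCDHB5, PCDHB15 and PCDHGB2 had none. Against IgG all 53 had one. Neither count was made for all genes, so these counts do not set the members apart. The median member had peaks of 2 libraries against input and 4 against IgG. Counted over the whole gene body, in which alpha and gamma members contain each other, the shARID1A TRIM28 list against input met 51 of 53 members, beside 72.4 percent of all genes, and the shCtrl SETDB1 list met 34, or 31 with a strong peak, beside 58.7 and 43.5 percent. Against input, the tallest shCtrl SETDB1 peak in a gamma segment was that of PCDHGB4 and PCDHGA8, which share the peak of 4.70 on their border.

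**Figure D5:**
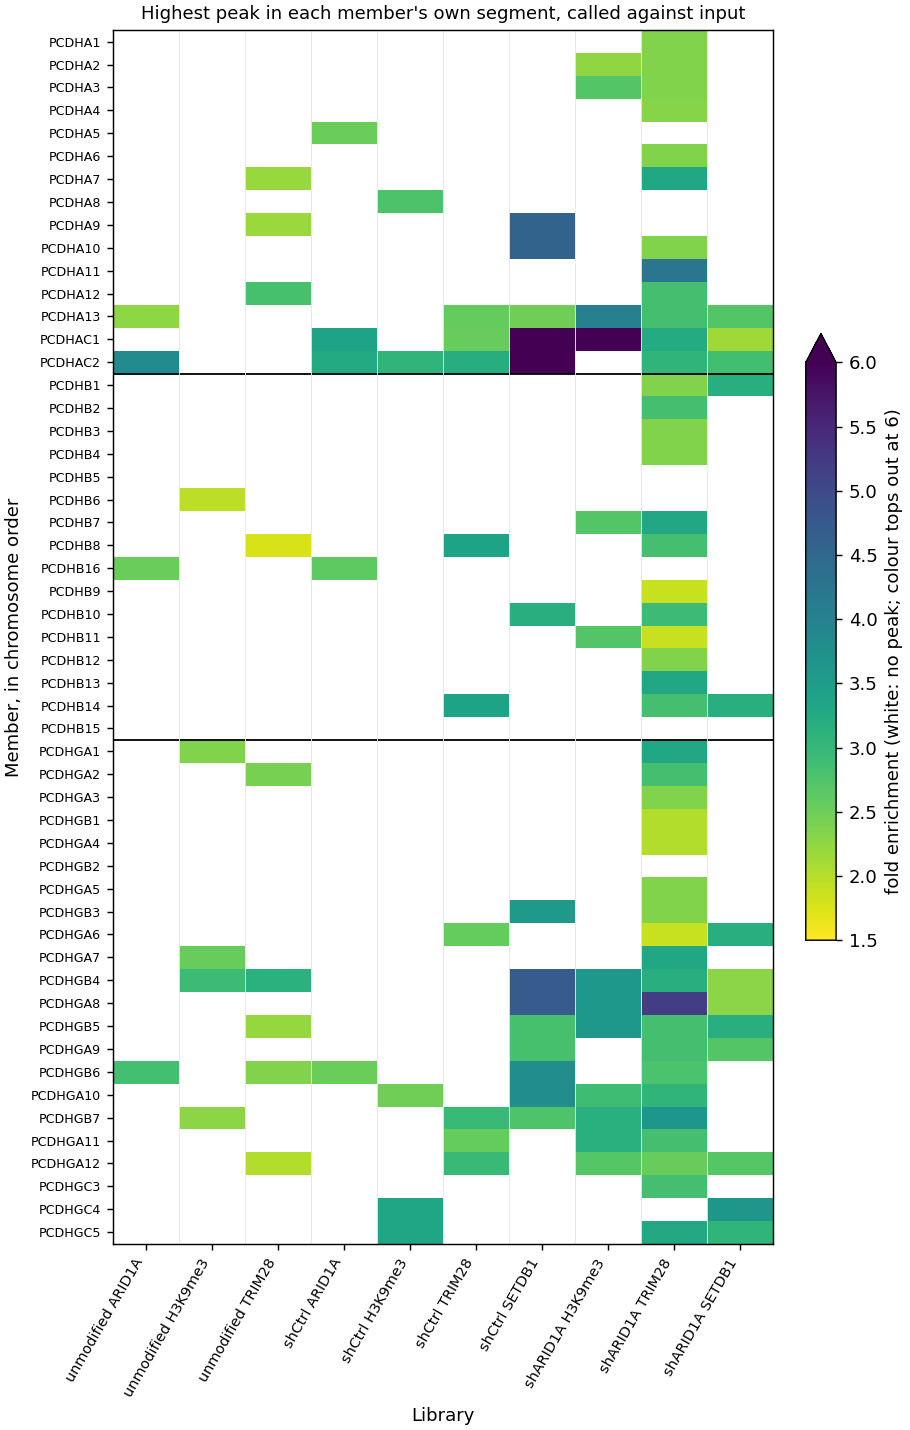
Fold enrichment of the highest peak called against input in each member's own segment (rows, in chromosome order, with lines between the alpha, beta and gamma clusters) for the 10 libraries (columns); white means no peak and the colour tops out at 6. The shARID1A TRIM28 column is coloured for the most members, mostly at low folds, and the darkest cells are those of PCDHAC1 and PCDHAC2.

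Protocadherins outside the clusters and genes whose products act at the clusters were counted over the gene body. Of 11 unclustered protocadherins, 5 had a shCtrl SETDB1 peak against input, 3 with a strong one (PCDH1, PCDH7 and PCDH9), beside 58.7% and 43.5% of all genes. Of 15 genes for factors known at the clusters, such as the CTCF, cohesin, SMCHD1 and SETDB1 genes, 11 had such a peak and 8 a strong one. The tallest were in ATF7IP, the partner protein of SETDB1 (19.9-fold), RAD21, a cohesin subunit (15.7), and SMCHD1, a repressor of the clusters (11.2). In shARID1A TRIM28, 10 of the 11 and 12 of the 15 had a peak, beside 72.4% of all genes, and against input ATF7IP had the single strong one. Against IgG 2 of the 11 and 2 of the 15 had a strong one, beside 10.4% of all genes.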

How the data were processed

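Peak lists of 10 precipitated libraries, each called against input and against IgG, were used as deposited; the 6 control samples enter only through them. Per the submitters' processing notes, MACS2 2.2.7.1, Bowtie2 2.2.5, ChIPseeker, deepTools 3.5.1 and FastQC 0.11.9 were run on GRCh38 (hg38), with options not given in the sources used. Each deposited list gives the authors' score, fold enrichment (a linear ratio), −log10 p and −log10 q per peak, and the summit offset. These are the authors' values and serve only to describe or filter peaks. All lists were cut near a p of 0.05 and most peaks have high q values. For H3K9me3 and TRIM28 the protocol and the sample labels name different antibody products.

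Members and gene lists were chosen with earlier results of these data known. Peaks on chromosomes 1 to 22 and X were counted once per start and end with Python 3.11.15, numpy 2.4.6, pandas 2.3.3 and scipy 1.17.1, and the counting was tested on simulated peaks. Density is per kb of the 3 clusters and of 2.675 Gb covered by 10000 bp windows. Intervals are exact Poisson, Clopper-Pearson or conditional binomial at 95% and cover counting error. With 1 library per group no test was possible. A start peak overlaps 1000 bp on either side of a gene's start: members' starts came from the RefSeq gene table, and those of the 15812 comparison genes from the RefSeq promoter table (both GRCh38.p14), which matched 47 of 53 members. Members named are up to 6 per library by fold among peaks present with both controls, those with a strong peak, and the 3 with the most libraries; a few more were named to complete counts of 9 or fewer. The letters to print, the subfamily likeness and the CGCT coverage were chosen after their values were seen. Alternatives were IgG lists, both controls, q of at most 0.05, the top 10000 peaks, no extension, gene bodies, start distances of 500 and 2000 bp, and stricter or looser overlap.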

Additional observations from a re-analysis of the deposited data

How the results depend on the processing

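The choice of control library and of threshold moved most values. Of the 10 peak numbers over the clusters, 8 moved beyond counting error with the IgG lists, 4 when both controls were required, 10 at q of at most 0.05 and 0 without the extension. Libraries denser over the clusters than over the genome numbered 6 as deposited and 2 at q of at most 0.05. Members with a peak in any library fell from 50 to 9 at q of at most 0.05 and to 13 with the top 10000 peaks, and members with a start peak from 35 to 6 and 12, because fewer peaks remained. The H3K9me3 excess of shARID1A over shCtrl was -0.83 at q of at most 0.05, on 1 peak in each state, against 1.06 as deposited. The SETDB1 excess was -1.58 with the top 10000 peaks, on 3 and 1 peaks, against 0.46. The TRIM28 excess was 0.23 against IgG, against 1.30, and that of shARID1A over unmodified cells -0.66 against IgG, against 0.65; the cause was not tested. The ARID1A excess of shCtrl over unmodified cells was 0.0585 with both controls, against -0.14. At q of at most 0.05 the TRIM28 and SETDB1 excesses had no value, since 1 state held 0 peaks. No paired analysis was possible because each group has a single library, so no replicate numbers are shared. Depth is unknown.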

Other observations

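TAF7, the gene of a general transcription factor subunit that lies between the beta and gamma clusters, had shCtrl SETDB1 peaks that were taller than those at most members. This gene was looked at after the lists had been read, with the 8 other genes within or between the clusters. Over TAF7, 3 peaks were called against input, 2 of them strong, with a highest fold of 7.64, and 3 against IgG, 2 of them strong, with a highest fold of 7.96. In shARID1A cells TAF7 held a SETDB1 peak of 3.40 against input that was not strong and a strong H3K9me3 peak of 4.46 against IgG. It held no peak of unmodified ARID1A or unmodified H3K9me3. Of these 9 genes, 3 had an unmodified H3K9me3 peak against IgG, beside 26.3% of all protein-coding genes. They were the protocadherin pseudogenes PCDHB17P, PCDHB18P and PCDHB19P, at 2.12, 2.56 and 2.41, near the list's median of 2.225. None of the 3 had a peak of that library against input.

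The word GGTGGCGCT, which holds the CGCT core, was the 9-letter word found in the most member promoters. It stood in 13 of the 47, all of them beta members, and in 0.411% of all protein-coding promoters. It was picked because it was common among the members, so its share is a description.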
